A study of Mus musculus with 9 samples.

Results

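The 43 genes described here encode the machinery that copies DNA: the replicative helicase and its loaders, the sliding clamp, DNA polymerases, enzymes that supply nucleotides, and cyclin E and E2F genes that open S phase. They were matched by symbol among the 30407 features that all libraries share, and all 43 were found. Before S phase the MCM helicase is loaded onto replication origins by Cdc6 and Cdt1, and at the start of S phase Cdc45 and the GINS complex switch it on. DNA polymerases then copy both strands while RPA coats the single strands and PCNA holds the polymerases in place. Many of these genes are transcribed by E2F factors as cells leave G1, so in a culture their transcripts mark the cells that are about to copy DNA or are copying it.

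The cells were of the mouse embryonic fibroblast line NIH3T3-CG, treated with SAG, a small molecule agonist of the Hedgehog pathway that acts on Smoothened. RNA of single cells was counted as unique molecular identifiers (UMIs), each standing for 1 captured transcript 3' end. Experiment 2 with Dox has 1 library each at 0, 19 and 30 h of SAG, Experiment 2 without Dox likewise has 1 each at 0, 19 and 30 h, and Experiment 1 has 1 each at 0, 17 and 30 h. All 9 libraries come from the same named line. What Dox induces is not in the labels, and Dox is not named for Experiment 1, whose libraries were treated as free of it. The times 17 h and 19 h were taken as the same. There is no library kept without SAG for the later times, so time in culture and SAG cannot be told apart. The labels give no separate cultures, and each combination of experiment, Dox and time has 1 library. The spread behind each p-value is therefore that of the SAG change between experiments and Dox states, or of the Dox or experiment difference between times. It may be technical, and it also holds any real differences of these kinds and that of 17 h from 19 h.

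Barcodes below 5000 UMIs or above 10% mitochondrial UMIs were dropped. This kept between 571 and 6520 cells per library, whose counts were summed to between 19407468 and 105444824 UMIs. In such sums fewer cells of a kind and less RNA per cell cannot be told apart. The Experiment 2 library at 19 h without Dox was shallow, with a median of 8025 UMIs per kept cell against 28335 to 48188 in the others. Cells with under 1% mitochondrial UMIs made up 18.2% and 17.9% of the kept cells at 19 and 30 h with Dox and 19.7% at 30 h without Dox in Experiment 2, against 0.429% to 1.41% in the other libraries. Ribosomal protein genes took 29.7% to 35.9% of UMIs with Dox, 35.3% to 41.3% without Dox in Experiment 2 and 26.3% to 29.5% in Experiment 1. No pair of libraries shared more than 9 kept barcodes. Fibroblast markers summed to between 5756 and 8343 scaled CPM, with Fap alone at no more than 0.0774. The 5 epithelial markers summed to 0.135 to 0.702, with Epcam and Cdh1 at most 0.0224 and Krt8 at most 0.538, and the 4 endothelial markers to 0.294 to 1.397, with Tek at most 0.961. The 5 macrophage markers summed to 10.2 to 16.8, nearly all of it Cd68 (at most 12.5) and Lyz2 (at most 14.97), with Ptprc and Adgre1 at most 0.0671. Gli1, the Hedgehog target that checks the SAG labels, measured 0.135, 19.7 and 25.7 scaled CPM with Dox, 0.0511, 8.16 and 16.7 without Dox in Experiment 2 and 0.206, 7.93 and 3.98 in Experiment 1, so it was near 0 in the 3 libraries at 0 h.

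Scaled CPM are a library's UMIs of a gene as CPM after TMM scaling, and each set of 3 values runs from 0 h over 17 to 19 h to 30 h. TMM assumes that most genes keep their level. Without it the median over all genes tested was 0.28 (log2) at 30 h against 0 h, 0.41 with Dox against without and -0.47 in Experiment 2 against Experiment 1, and with it these medians were -0.00, 0.01 and -0.01. Changes below are relative to that shift.

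Promoters are shown for 3 genes that moved most closely with the rest of the set from cell to cell and for Rpa3, the gene with the smallest p over SAG time. RefSeq promoter windows on GRCm38.p6, 250 bases before to 50 after a transcript start, were at hand for 34 of the 43 genes. Letters of an E2F core (TTTCCCGC, TTTCGCGC, TTTGCCGC or TTTGGCGC, on both strands) are in capitals. Hells, which encodes a chromatin remodeler of heterochromatin, has its window at chr19:38930740-38931039 on the plus strand. Mcm3, a helicase subunit, has chr1:20820263-20820562 on the minus strand. Uhrf1, which brings DNA methyltransferase to freshly copied DNA, has 2 windows. The one with the E2F core is shown, at chr17:56304063-56304362 on the plus strand. Rpa3, the small subunit of RPA, has chr6:8259092-8259391 on the minus strand. Each is printed in the direction of transcription.
Hells: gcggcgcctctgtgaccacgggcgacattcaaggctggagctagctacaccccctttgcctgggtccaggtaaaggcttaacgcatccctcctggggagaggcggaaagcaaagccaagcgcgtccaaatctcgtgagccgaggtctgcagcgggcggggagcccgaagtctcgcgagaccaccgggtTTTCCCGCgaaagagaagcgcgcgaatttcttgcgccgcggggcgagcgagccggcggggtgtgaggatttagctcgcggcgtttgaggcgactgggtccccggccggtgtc
Mcm3: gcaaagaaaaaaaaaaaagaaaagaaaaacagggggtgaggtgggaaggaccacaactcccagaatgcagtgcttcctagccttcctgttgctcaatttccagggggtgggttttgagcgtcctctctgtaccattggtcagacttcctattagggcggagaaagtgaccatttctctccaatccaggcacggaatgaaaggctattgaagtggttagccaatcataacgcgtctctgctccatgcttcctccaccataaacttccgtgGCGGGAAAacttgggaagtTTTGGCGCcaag
Uhrf1: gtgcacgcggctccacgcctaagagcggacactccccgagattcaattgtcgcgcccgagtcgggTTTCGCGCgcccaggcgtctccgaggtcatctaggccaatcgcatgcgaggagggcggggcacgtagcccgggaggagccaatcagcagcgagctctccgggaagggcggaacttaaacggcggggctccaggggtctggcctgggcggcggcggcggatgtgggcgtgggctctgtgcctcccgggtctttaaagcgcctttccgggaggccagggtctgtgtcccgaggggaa
Rpa3: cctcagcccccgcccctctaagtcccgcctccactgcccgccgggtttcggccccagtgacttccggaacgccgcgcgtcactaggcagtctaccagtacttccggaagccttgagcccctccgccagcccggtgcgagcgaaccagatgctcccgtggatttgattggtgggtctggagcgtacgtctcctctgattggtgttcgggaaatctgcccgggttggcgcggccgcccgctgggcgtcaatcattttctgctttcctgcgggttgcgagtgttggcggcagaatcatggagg
The core of Hells begins 62 bases before the start and that of Uhrf1 185 bases before it. The pair of cores of Mcm3 lie just after the start, and the window of Rpa3 holds none of these letters. An E2F core was present in 14 of the 34 members with a window, 41.2%, against 704 of 27025 genes in the table, 2.61%. The CCAAT box, read as CCAAT on both strands, was in 19 of 34, 55.9%, against 41.1% of all genes. The cell cycle element CHR, read as TTTGAA, was in 5 of 34, 14.7%, against 20.2%. A gene was counted if any of its windows held a match, and the 34 members have 40 windows. Matches of letters do not show that a factor binds, and the lack of a match draws nothing about the factor.

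Over 30 h of SAG the members' median in the fit of all 9 libraries stayed near the shift of all genes, and few members passed the test. Rpa3 and Tipin fell and no member rose (2 of 43, edgeR, adjusted p under 0.05), where 5.67% of the 13837 genes tested were called, 3.69% lower and 1.98% higher. The median log2 change was -0.02 over the 43 members and -0.00 over all genes tested. At an unadjusted p under 0.05, 4 members were higher and 6 lower, against 33.2% of all genes in either direction. Within the 3 arms (Experiment 2 with Dox, Experiment 2 without Dox and Experiment 1), 7 members were higher at 30 h in all 3 and 6 were lower in all 3. That is 16.3% and 14.0% of the members, against 20.6% and 21.0% of all genes tested. The members' median within these arms was 0.14, -0.36 and 0.10, against 0.02, 0.01 and -0.01 over all genes. The median of the joint fit thus averages arms that differed. Which libraries entered decided the count of calls. The count was 0 without any 1 of the Experiment 2 libraries at 0 h or 30 h, with or without Dox, or without the one at 19 h without Dox. It was 1 without the library at 19 h with Dox or the Experiment 1 library at 17 h, 7 without the Experiment 1 library at 30 h and 15 without that at 0 h. The calls over all genes moved likewise, to 28.6% and 43.3% of those tested in these last fits and to no more than 1.09% in the other 7, so the members were called no more often than other genes where calls were many. Without TMM factors 0 were called, beside 0.0867% of all genes, and the median was 0.26 over the members and 0.28 over all genes.

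**Figure D1:**
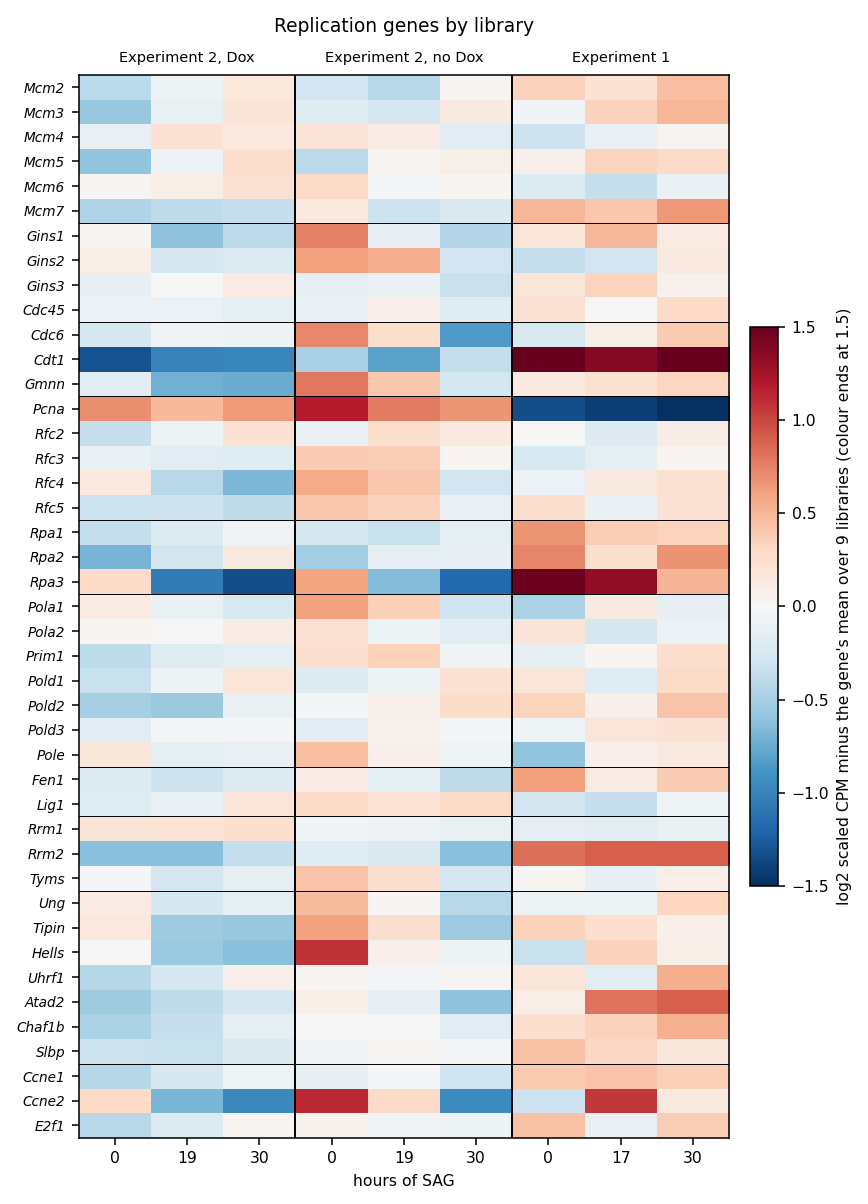
Each cell gives the log2 scaled CPM of a replication gene (43 down the page, grouped by role) in 1 library, less the gene's mean over the 9 libraries; columns run over hours of SAG within Experiment 2 with Dox, Experiment 2 without Dox and Experiment 1. Cdt1 and Pcna split by experiment, and Rpa3 is lower at 30 h than at 0 h in each arm.

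RPA binds single-stranded DNA as a complex of 3 subunits, of which the smallest passed the test. Rpa3 measured 36.2, 14.2 and 11.8 scaled CPM with Dox, 44.5, 18.8 and 13.1 without Dox in Experiment 2 and 82.1, 74.2 and 42.2 in Experiment 1. The 3 libraries at 30 h were each below the library at 0 h of the same arm, with log2 differences of -1.62, -1.76 and -0.96. The tested change was -1.47 (SE 0.21, adjusted p = 0.0172), with values of -1.76 to -1.17 and adjusted p of 8.96e-08 to 0.698 over the alternatives. Rpa1, the large subunit, measured 10.3, 11.4 and 12.7 scaled CPM with Dox, 10.9, 10.4 and 11.9 without Dox in Experiment 2 and 20.7, 16.9 and 16.5 in Experiment 1. Rpa2, the middle subunit, measured 2.27, 3.04 and 4.04 scaled CPM with Dox, 2.55, 3.31 and 3.37 without Dox in Experiment 2 and 6.11, 4.34 and 5.88 in Experiment 1. Both were highest in Experiment 1 at each time. Their log2 changes at 30 h were 0.03 (adjusted p = 0.891) and 0.37 (adjusted p = 0.224), and neither passed the test. At 17 to 19 h the change of Rpa3 was -0.92 (SE 0.21, adjusted p = 0.206), which edgeR did not call. The share of ribosomal protein UMIs also moved with time, 35.9%, 29.7% and 29.7% with Dox, 41.3%, 36.8% and 35.3% without Dox in Experiment 2 and 26.3%, 29.5% and 29.2% in Experiment 1, and its part was not tested. Without the cells under 1% mitochondrial UMIs the change of Rpa3 at 30 h was -1.48 (adjusted p = 0.018).

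Tipin, which with Timeless steadies the replication fork, was the other member that fell, with a log2 change of -0.71 (SE 0.18, adjusted p = 0.0471). Tipin measured 20.7, 12.8 and 12.5 scaled CPM with Dox, 28.2, 21.98 and 12.7 without Dox in Experiment 2 and 23.5, 22.1 and 19.6 in Experiment 1. The difference of 30 h from 0 h was -0.72 with Dox, -1.14 without Dox in Experiment 2 and -0.27 in Experiment 1, so the Experiment 1 libraries differed least. In the libraries without Dox alone it was not called (adjusted p = 0.25), and over all alternatives its value ran from -0.89 to -0.43 and its adjusted p from 0.00114 to 0.681.

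Of the 6 MCM helicase genes 5 had a positive change, with a median of 0.20, and none passed the test. Mcm3 measured 8.28, 11.3 and 14.01 scaled CPM with Dox, 10.8, 10.4 and 13.4 without Dox in Experiment 2 and 11.99, 15.6 and 17.4 in Experiment 1. Mcm5 measured 2.75, 3.95 and 4.99 scaled CPM with Dox, 3.15, 4.24 and 4.42 without Dox in Experiment 2 and 4.41, 5.27 and 5.07 in Experiment 1. Both were highest at 30 h in each Experiment 2 arm, and in Experiment 1 Mcm5 was highest at 17 h. Their changes at 30 h were 0.53 (SE 0.14, adjusted p = 0.0511) and 0.52 (SE 0.16, adjusted p = 0.0677). DESeq2 called Mcm3 (0.51, adjusted p = 0.0255) and not Mcm5, and over the alternatives the adjusted p of Mcm3 ran from 0.0152 to 0.681. Mcm2 measured 5.91, 7.41 and 8.73 scaled CPM with Dox, 6.42, 5.86 and 8.03 without Dox in Experiment 2 and 9.96, 9.09 and 10.7 in Experiment 1, with a change of 0.33 (adjusted p = 0.142). Mcm4, Mcm6 and Mcm7 had changes of 0.07, 0.02 and -0.04. In sum the 6 genes reached 58.2, 68.8 and 74.9 scaled CPM with Dox, 74.4, 64.8 and 69.1 without Dox in Experiment 2 and 76.2, 78.4 and 89.9 in Experiment 1.

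Among the factors that load and start the helicase no change over SAG time passed the test. Gmnn, whose protein geminin holds Cdt1 back until the next cycle, measured 11.4, 7.796 and 7.65 scaled CPM with Dox, 22.1, 16.95 and 10.7 without Dox in Experiment 2 and 14.2, 14.96 and 16.01 in Experiment 1. Its values at 30 h were below those at 0 h in both Experiment 2 arms and above it in Experiment 1, with a tested change of -0.49 (adjusted p = 0.127). Cdc6, the helicase loader, was among the 4 members of lowest mean CPM and measured 1.11, 1.26 and 1.24 scaled CPM with Dox, 2.16, 1.58 and 0.727 without Dox in Experiment 2 and 1.12, 1.399 and 1.702 in Experiment 1. Within the arms it differed by 0.16, -1.53 and 0.59 at 30 h, so it was lower in Experiment 2 without Dox and higher in the other arms. Gins1, a subunit of the GINS complex that is also among the 4 lowest, measured 1.54, 0.999 and 1.16 scaled CPM with Dox, 2.55, 1.39 and 1.12 without Dox in Experiment 2 and 1.73, 2.14 and 1.66 in Experiment 1, with a tested change of -0.598 (adjusted p = 0.141). The remaining members of this group, Gins2, Gins3, Cdc45 and Cdt1, had changes between -0.23 and 0.13.

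Cyclin E partners the kinase Cdk2 at the entry to S phase, and neither of its genes passed the test over SAG time. Ccne2, also one of the 4 lowest members, measured 1.67, 0.846 and 0.693 scaled CPM with Dox, 2.96, 1.66 and 0.699 without Dox in Experiment 2 and 1.09, 2.84 and 1.51 in Experiment 1. It was lower at 30 h in both Experiment 2 arms (-1.23 with Dox and -2.04 without, log2) and higher in Experiment 1 (0.46), where the value at 17 h was the highest. The tested change was -1.14 (SE 0.44, adjusted p = 0.108), which did not pass the test. Ccne1 measured 4.96, 5.65 and 6.37 scaled CPM with Dox, 6.15, 6.61 and 5.44 without Dox in Experiment 2 and 8.76, 8.997 and 8.55 in Experiment 1, with a change of 0.05. E2f1, which encodes 1 of the E2F factors that transcribe many such genes, had a change of 0.07.

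The clamp, polymerase, ligase and nucleotide genes had no called change over SAG time either. Pcna, the sliding clamp, was -0.32 at 30 h (adjusted p = 0.132) and lower than at 0 h in all 3 arms. The 4 clamp loader genes ran from -0.46 for Rfc4 to 0.305 for Rfc2. The 7 polymerase and primase genes ran from -0.34 for Pola1, a subunit of the primer-making polymerase alpha, to 0.34 for Pold1, the catalytic subunit of polymerase delta. Rrm1 and Rrm2, the subunits of ribonucleotide reductase, had changes of 0.01 and -0.03, and Tyms, which makes thymidylate, -0.24. Ung, which removes uracil from DNA and is one of the 4 lowest members, measured 1.92, 1.498 and 1.599 scaled CPM with Dox, 2.45, 1.79 and 1.32 without Dox in Experiment 2 and 1.67, 1.68 and 2.205 in Experiment 1. Fen1 and Lig1, which trim and seal Okazaki fragments, had changes of -0.25 and 0.19, and Hells, Uhrf1, Atad2, Chaf1b and Slbp had changes between -0.53 for Hells and 0.28 for Uhrf1. None of these was called.

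**Figure D2:**
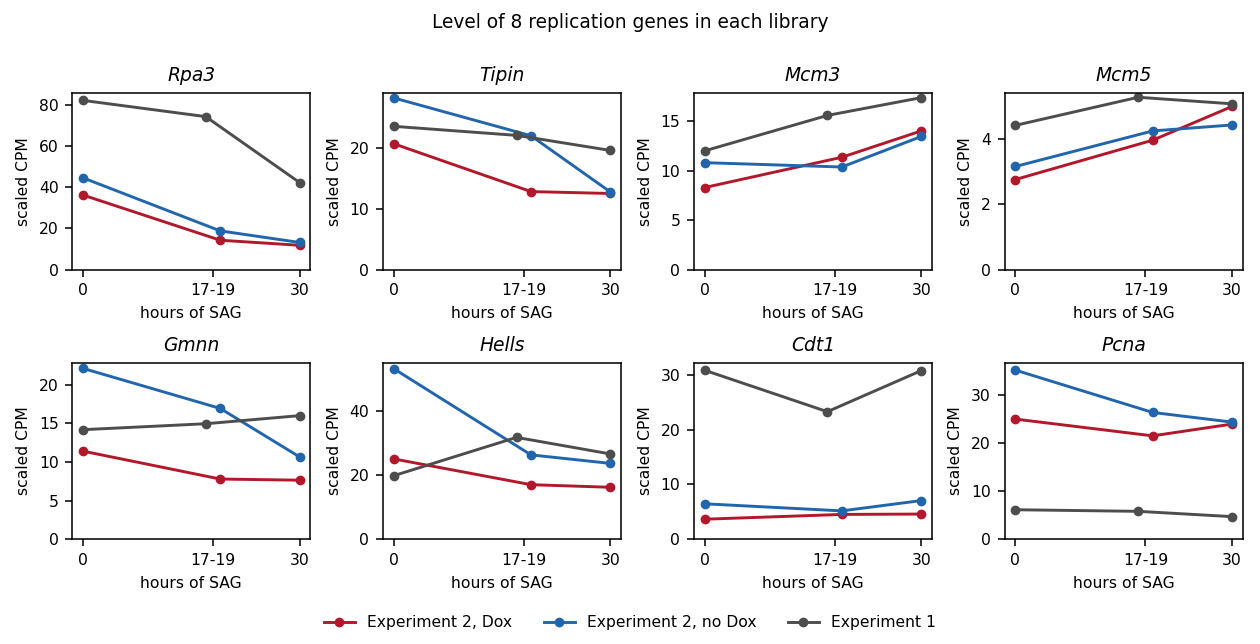
Scaled CPM (y axes from 0) of 8 replication genes by hours of SAG, 1 point per library, with lines joining the libraries of Experiment 2 with Dox, Experiment 2 without Dox and Experiment 1. Rpa3 ends at 11.8, 13.1 and 42.2 scaled CPM at 30 h in these arms, each below its start, while Gmnn and Hells start highest in Experiment 2 without Dox.

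At 17 to 19 h against 0 h, 0 members were called by edgeR, with 1 higher (Mcm5) and 1 lower (Rpa3) at an unadjusted p under 0.05. Of all genes edgeR called 0.0217%, 0.0145% higher and 0.00723% lower, and 11.3% had an unadjusted p under 0.05. DESeq2 called 1 member, beside 0.795% of all genes. With the Experiment 1 library at 0 h left out, 7 members passed beside 18% of all genes, and with that at 30 h left out 1 did beside 1.45%. At 30 h against 17 to 19 h edgeR called 0 of 13837 genes (0%), with 675 at an unadjusted p under 0.05 (4.88%) and 0 by DESeq2. Of the members, Pold2 was higher and Rpa3 lower at an unadjusted p under 0.05.

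The SAG change was then compared between Dox and no Dox. Its median difference (change with Dox minus change without, the latter from both experiments) was 0.27 over the members and 0.03 over all 14354 genes tested. A positive difference was found in 31 of 43 members. Single libraries moved this median. Without the Experiment 2 library at 30 h without Dox it was 0.0012, with 22 members positive and 21 negative, and without that at 0 h 0.14. Without the Experiment 1 library at 0 h or 30 h it was 0.37 or 0.40, with 40 members positive. No member and no other gene was called (edgeR, 0%), with 0 members and 206 genes (1.44%) at an unadjusted p under 0.05 and 0 genes called by DESeq2. Each time with Dox rests on 1 library, whose spread was assumed to equal that of the others. On simulated counts this fit recovered 0% of 1.5-fold, 4.69% of 2-fold and 61.5% of 4-fold changes. The lack of calls therefore cannot decide whether the SAG change differed with Dox. Within the arms the members' median at 30 h against 0 h was 0.14 with Dox, -0.36 without Dox in Experiment 2 and 0.10 in Experiment 1. All genes had 0.02, 0.01 and -0.01. Without TMM scaling the same medians were 0.54, 0.16 and 0.02 over the members and 0.41, 0.52 and -0.09 over all genes. In both scalings the members lay below all genes in Experiment 2 without Dox and above them in the other arms.

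Among all genes tested 1.98% were called higher and 3.69% lower at 30 h. Other replication genes, 45 further factors such as origin recognition and histone chaperone genes, showed 0 higher and 4 lower at 30 h, with a median of -0.22. The 4 were Orc6 (-0.97), an origin recognition subunit, the S phase kinase gene Cdc7 (-0.65), Dck (-0.85), a nucleoside kinase, and Pclaf (-0.93), a partner of PCNA. Their adjusted p ran from 0.0367 for Cdc7 to 0.0474 for Dck. None of 23 other G1 to S genes and none of 25 mitosis genes was called at 30 h by edgeR. At an unadjusted p under 0.05, 2 and 4 were higher and 4 and 3 lower, against 33.2% of all genes in either direction. In most fits that left out 1 library no more than 1.09% of all genes were called. Gli1 and Ptch1, the Hedgehog targets, rose by 6.91 and 3.300 on the log2 scale (adjusted p = 0.00246 and 0.0295).

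Dox was compared with no Dox at matched SAG times. In the 6 libraries of Experiment 2, 14 of 43 members fell and 1 rose with Dox, where 38.4% of the 13645 genes tested were called, 19.2% lower and 19.2% higher, and 47.2% had an unadjusted p under 0.05. The members' median log2 difference was -0.19, against 0.01 over all genes. It was -0.44 at 0 h, -0.25 at 19 h and 0.06 at 30 h, against 0.01, 0.02 and 0.01 over all genes, so it was widest at 0 h. In all 3 pairs of libraries 18 members were lower with Dox and 2 were higher, 41.9% and 4.65% of them, against 31.5% and 33.1% of all genes. The count of calls was 5 without either library at 0 h (21.2% or 21.0% of all genes called), 9 without either at 19 h (27.5% or 26.6%) and 19 without either at 30 h (30.6% or 30.5%). DESeq2 called 9, all lower, beside 28.5% of all genes, 16.2% lower and 12.4% higher. With library size as the only scaling 7 members were called higher and 2 lower, beside 50.9% and 3.55% of all genes, with medians of 0.20 over the members and 0.41 over all genes, and Lig1 (0.10), Rpa3 (0.10) and Slbp (0.12) turned positive. Over the 3 times pooled the members' median lay below that of all genes under both scalings, and at 30 h it lay above under both (0.06 against 0.01 with TMM, 0.31 against 0.25 without).

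Gmnn and Hells, a licensing and a chromatin gene, had the smallest p-values with Dox. Gmnn was lower with Dox at each time, with differences of -0.95, -1.12 and -0.48, and the tested difference was -0.86 (SE 0.12, adjusted p = 3.06e-07). Hells measured 25.1, 17.02 and 16.2 scaled CPM with Dox, 53.2, 26.3 and 23.7 without Dox in Experiment 2 and 19.8, 31.8 and 26.6 in Experiment 1. The Experiment 2 library at 0 h without Dox was the highest of all 9 for Hells, and the tested difference was -0.75 (SE 0.12, adjusted p = 1.63e-06). Cdt1, the licensing factor that geminin blocks, measured 3.64, 4.51 and 4.58 scaled CPM with Dox, 6.45, 5.16 and 7.04 without Dox in Experiment 2 and 30.8, 23.3 and 30.8 in Experiment 1. Its difference with Dox was -0.53 (adjusted p = 0.001304), and its values with Dox were below those without Dox at each time. Gmnn and Hells were also called lower with library size as the only scaling (-0.46 and -0.36).

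Of the 4 clamp loader genes, whose products place PCNA on DNA, 3 fell with Dox. Rfc4 measured 19.2, 12.98 and 10.9 scaled CPM with Dox, 25.6, 23.04 and 14.2 without Dox in Experiment 2 and 16.3, 19.2 and 20.3 in Experiment 1. Rfc5 measured 4.75, 4.76 and 4.56 scaled CPM with Dox, 7.87, 7.52 and 5.47 without Dox in Experiment 2 and 7.02, 5.55 and 6.89 in Experiment 1. Rfc3 measured 11.7, 11.1 and 10.99 scaled CPM with Dox, 16.2, 16.1 and 12.7 without Dox in Experiment 2 and 10.7, 11.4 and 12.7 in Experiment 1. Each value with Dox was below its partner without Dox at the same time, and the tested differences were -0.55, -0.55 and -0.41 (adjusted p = 0.000203, 0.000651 and 0.004202). Rfc2 had a difference of -0.17 and Pcna of -0.27, and neither passed the test. Without TMM factors the 3 values were -0.15, -0.15 and -0.02 and no longer called.

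Among polymerase and fork genes, Pold2, an accessory subunit of polymerase delta, measured 13.9, 13.3 and 18.1 scaled CPM with Dox, 19.1, 20.8 and 23.7 without Dox in Experiment 2 and 24.6, 20.7 and 26.3 in Experiment 1. Its difference was -0.500 (adjusted p = 0.000434). Prim1, the catalytic primase subunit, measured 5.0998, 5.85 and 6.03 scaled CPM with Dox, 7.89, 8.44 and 6.401 without Dox in Experiment 2 and 5.97, 6.76 and 7.93 in Experiment 1, with a difference of -0.41 (adjusted p = 0.00874). Both were lower with Dox at each of the 3 times. Tipin differed by -0.42 (adjusted p = 0.00474), with -0.45, -0.78 and -0.03 at the 3 times, and Ccne2 by -0.64 (adjusted p = 0.00866). Gins2 measured 8.12, 6.43 and 6.56 scaled CPM with Dox, 11.5, 11.1 and 6.24 without Dox in Experiment 2 and 5.94, 6.2002 and 8.39 in Experiment 1. Its difference was -0.41 (adjusted p = 0.0109), and at 30 h its values with and without Dox were nearly equal.

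The remaining calls were small. Lig1, DNA ligase 1, measured 19.1, 20.3 and 24.7 scaled CPM with Dox, 26.6, 25.1 and 26.6 without Dox in Experiment 2 and 17.95, 17.1 and 20.8 in Experiment 1. Slbp, which binds histone mRNA stem-loops, measured 23.6, 23.2 and 25.3 scaled CPM with Dox, 28.5, 29.7 and 28.8 without Dox in Experiment 2 and 39.8, 36.5 and 33.1 in Experiment 1. Both were lower with Dox than without at each time. Lig1, Slbp and Rpa3 had differences of -0.29, -0.27 and -0.29 (adjusted p = 0.03405, 0.0449 and 0.0342). Rrm1, the large subunit of ribonucleotide reductase, was the only member called higher with Dox. Rrm1 measured 18.9, 19.03 and 19.5 scaled CPM with Dox, 16.1, 15.7 and 15.3 without Dox in Experiment 2 and 14.9, 14.7 and 15.5 in Experiment 1. Its difference was 0.29 (SE 0.11, adjusted p = 0.0365), higher at 3 of 3 times. Gins3 measured 1.83, 1.998 and 2.17 scaled CPM with Dox, 1.81, 1.86 and 1.58 without Dox in Experiment 2 and 2.26, 2.52 and 2.09 in Experiment 1. It and Mcm2 were the next members on the higher side, with 0.21 and 0.12, which did not pass the test. Rpa3 (-0.35 to -0.23) and Slbp (-0.32 to -0.23) were no longer called without any 1 of the 6 libraries, and Rrm1 (0.25 to 0.31) without any 1 of the 4 at 0 h or 30 h.

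Further lists of the same processes were counted against the 19.2% of all genes called in each direction. Of the 45 other replication genes 18 fell and 0 rose, with a median of -0.30, and of 23 other G1 to S genes 8 fell and 3 rose. Dut, which keeps uracil out of DNA, had a difference of -0.83 and Pold4, a polymerase delta subunit, of -0.79. Of the 25 mitosis genes all had negative differences and 21 fell, with a median of -0.56. Of the fibroblast markers 4 of 8 tested were called higher with Dox and 0 lower, though 2 were lower at an unadjusted p under 0.05 (edgeR). Vim was lower at each time (-0.25, -0.46 and -0.31). Tek was called higher among the endothelial ones, at a low level and with log2 differences of -1.04, 2.25 and 1.64 at the 3 times. Cd68 measured 0.729, 0.713 and 1.02 scaled CPM with Dox against 1.52, 1.81 and 2.46 without. Lyz2, the other abundant macrophage marker, lay on the higher side, with log2 differences of 0.50, 0.04 and 0.27 at the 3 times. Libraries with and without Dox also differed in ribosomal protein share at each time: 35.9%, 29.7% and 29.7% with Dox against 41.3%, 36.8% and 35.3% without. They differed in depth, with median UMIs of 29145, 38970 and 45291 with Dox against 28335, 8025 and 48188 without. The part of these markers, composition and depth in the differences was not tested.

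The experiments were then compared. In the 6 libraries without Dox, 2 members were higher and 9 lower in Experiment 2, where 40.5% of the 13015 genes tested were called, 20.6% higher and 19.9% lower, and 48.7% had an unadjusted p under 0.05. Both directions together, the members were called no more often than other genes. The experiment, the software version of the matrices and the feature list changed together and cannot be told apart. Pcna measured 24.9, 21.5 and 23.9 scaled CPM with Dox, 35.1, 26.3 and 24.3 without Dox in Experiment 2 and 6.11, 5.78 and 4.68 in Experiment 1. The 6 Experiment 2 libraries did not overlap those of Experiment 1, and without Dox the tested difference was 2.37 (SE 0.19, adjusted p = 5.22e-08). Cdt1 went the other way, -2.18 (SE 0.18, adjusted p = 8.42e-08), with Experiment 1 above every Experiment 2 library. No exon of Pcna or Cdt1 overlaps another gene in GENCODE vM21, and the only member with an overlapping gene present in 1 of the feature lists alone was Fen1. Only overlap of positions was looked at, and the part of counting in these differences was not tested.

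All 3 RPA genes were lower in Experiment 2, with differences of -0.69 for Rpa1, -0.81 for Rpa2 and -1.51 for Rpa3 on the log2 scale (adjusted p = 0.00605, 0.00853 and 4.88e-05). Rrm2, the small subunit of ribonucleotide reductase, measured 4.02, 4.01 and 4.82 scaled CPM with Dox, 5.47, 5.35 and 4.03 without Dox in Experiment 2 and 11.02, 11.6 and 11.6 in Experiment 1, a difference of -1.21 (adjusted p = 0.000132). Its 3 libraries of Experiment 1 were above all others. Atad2, a chromatin ATPase that binds acetylated histones, measured 23.3, 26.02 and 28.2 scaled CPM with Dox, 35.95, 31.03 and 22.3 without Dox in Experiment 2 and 36.2, 59.7 and 63.2 in Experiment 1, and differed by -0.82 (adjusted p = 0.0117). The gap for Atad2 opened after 0 h, with -0.01, -0.94 and -1.501 at the 3 times. Mcm7 measured 13.3, 13.96 and 14.4 scaled CPM with Dox, 20.1, 14.7 and 15.7 without Dox in Experiment 2 and 25.7, 24.1 and 28.6 in Experiment 1. Mcm7, Mcm2 and Ccne1 had differences of -0.64, -0.55 and -0.53, and Lig1 of 0.497 (adjusted p = 0.00995, 0.0256, 0.0336 and 0.03196). With library size as the only scaling 1 member was higher and 16 were lower, beside 9.27% and 34.5% of all genes, Lig1 (0.04) was not called, and without either library at 17 to 19 h 5 members were called, beside 19.1% or 21.5% of all genes. Smooth muscle markers summed to 370.5 to 490.2 scaled CPM without Dox in Experiment 2 and 126 to 171 in Experiment 1. Cd68 measured 1.52, 1.81 and 2.46 without Dox in Experiment 2 and 9.79, 10.6 and 12.5 in Experiment 1. Lyz2, the other abundant macrophage marker, went the other way, with log2 differences of 0.80, 1.73 and 1.58 at the 3 times. The part of these markers was not tested.

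Exons of Mcm7, Gins2, Cdc45, Rfc2, Rfc4, Rfc5, Pole, Fen1, Lig1, Slbp and Ccne2 overlap those of a gene on the other strand in GENCODE vM21, and whether counting used the strand is not given in the sources used here. Exons of Rpa1 overlap Gm47300 and those of Mcm7 overlap Mir25 and Mir93 on the same strand. Values of these genes are less certain for that reason.

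The summed level of the 43 genes depended on the scaling. As plain CPM it was 399, 488 and 522 with Dox, 419, 416 and 444 without Dox in Experiment 2 and 696, 660 and 676 in Experiment 1. The log2 ratio of 30 h to 0 h was 0.39, 0.08 and -0.04 in these arms. After TMM scaling the sums were 445, 411 and 442 with Dox, 606, 511 and 448 without Dox in Experiment 2 and 596, 597 and 613 in Experiment 1, and the ratios were -0.01, -0.44 and 0.04.

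The genes were then counted in single cells. Each kept cell with at least 10000 UMIs was thinned at random to 10000 UMIs, which left out 16 to 112 shallower cells per library, 321 at 0 h and 3910 at 19 h without Dox in Experiment 2. The share of cells with UMIs of 4 or more of the 43 genes was 24.8%, 41.7% and 44.4% with Dox, 24.2%, 30.4% and 34.3% without Dox in Experiment 2 and 66.6%, 58.2% and 60.6% in Experiment 1. Exact binomial 95% intervals, which cover counting error only, were 22.5% to 27.3% at 0 h and 41.9% to 46.9% at 30 h with Dox. Without Dox in Experiment 2 they were 22.5% to 25.8% at 0 h and 32.3% to 36.4% at 30 h, and in Experiment 1 63.5% to 69.7% and 56.5% to 64.7%. The difference of 30 h minus 0 h was 19.6, 10.2 and -5.99 percentage points. Before thinning the shares were 81.9%, 91.4% and 95.1% with Dox, 72.9%, 47.1% and 92.2% without Dox in Experiment 2 and 97.6%, 93.3% and 93.5% in Experiment 1, where the low value is the shallow library.

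Many cells lay near the limit of 4 genes. At 30 h with Dox 20.7% of cells had exactly 3 of the genes and 19.8% exactly 4. When cells were thinned instead to 5000 UMIs outside ribosomal protein and mitochondrial genes, the differences shrank to 8.23, 0.55 and -1.88 points. For 8 or more genes the share was 4.76%, 5.89% and 5.62% with Dox, 7.37%, 7.39% and 5.52% without Dox in Experiment 2 and 12.8%, 10.7% and 13.6% in Experiment 1. The 30 h minus 0 h differences of this share were 0.87, -1.85 and 0.84 points, with the same sign as for 4 or more genes in the Dox arm alone. With Dox against without, the share with 8 or more genes was lower at 0 h (4.76% against 7.37%) and 19 h (5.89% against 7.39%) and nearly equal at 30 h (5.62% against 5.52%). No cell type without these genes is present, so the share that free RNA gives was not measured.

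**Figure D3:**
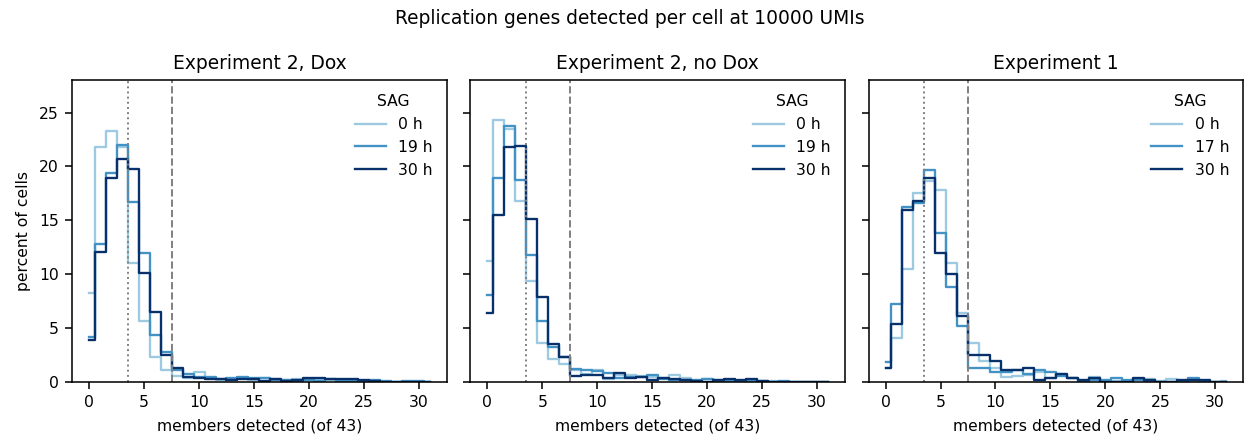
Percent of cells (y axis) by the number of the 43 genes with a UMI (x axis) in cells thinned to 10000 UMIs, 1 line per library, in panels for Experiment 2 with Dox, Experiment 2 without Dox and Experiment 1. The dotted line marks 4 and the dashed line 8 genes; the bulk of cells shifts around the dotted line while a long tail to 25 or more genes stays in every library.

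Cells with 8 or more of the genes, 4.76% to 13.6% of a library, carried 27.7% to 38.9% of the 43 genes' UMIs in thinned cells. They were picked by these same genes, so a raised share follows from the choice. In Experiment 1 the limit lay close to the bulk, with 6.43% of cells at exactly 7 and 3.60% at exactly 8 genes at 0 h. The share with 12 or more there was 5.45%, 6.26% and 5.55%. A Mki67 UMI, a mark of dividing cells, was found in 54.4% and 59.3% of cells with 8 or more members at 19 and 30 h with Dox, against 2.53% and 2.36% of the rest. Without Dox in Experiment 2 it was in 45.1% and 66.4% against 3.48% and 1.45%, and in Experiment 1 at 17 and 30 h in 53.4% and 50% against 1.65% and 1.86%. These cells had 1.201 to 1.67 times the median UMIs of the rest before thinning. No doublet caller was run. Without cells above 2 times the median UMIs the 30 h minus 0 h differences for 4 or more genes were 19.9, 10.3 and -5.66 points. In the shallow Experiment 2 library at 19 h without Dox this filter left 564 of 2610 thinned cells. The share with 4 or more genes there was 43.3%, against 30.4% before the filter.

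Members differed widely in how far they were concentrated in such cells. For each gene, cells with 8 or more of the other 42 were set against the rest. Mcm5 averaged 0.335 UMIs per thinned cell in them and 0.00692 in the rest, a ratio of 48.5. Cdc6 and Pole, the catalytic subunit of polymerase epsilon, had ratios of 42.9 and 32.4, and Uhrf1, Mcm3 and Rrm2 had 19.2, 19.1 and 18.6. At the other end E2f1 averaged 0.239 and 0.113 UMIs, a ratio of 2.11. Pold3, Rpa3, Slbp, Ccne1 and Pold2 had ratios of 2.301 to 2.52. The means give more weight to libraries where a gene is high, as for Cdt1 in Experiment 1, whose ratio was 2.58 while a median of 25% of its UMIs lay in these cells. Rpa3, the member that fell furthest over SAG time, was among the least concentrated, with a median of 18.2% of its UMIs in these cells against 60.2% for Mcm3 and 81.9% for Mcm5. The ratio is of the 2 means over 9 libraries and is a description of these cells.

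**Figure D4:**
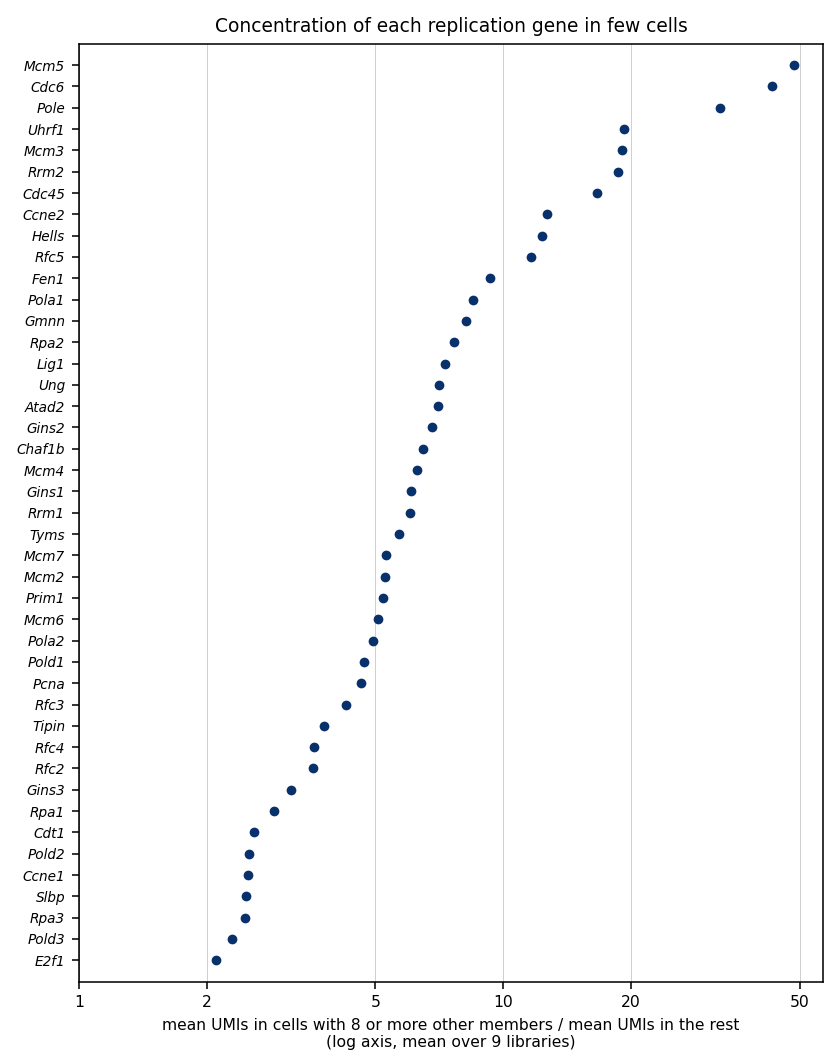
Ratio of mean UMIs per thinned cell in cells with 8 or more of the other members to that in the rest (x axis, log scale, from means over 9 libraries) for each of the 43 genes. The ratios run from 2.11 for E2f1 to 48.5 for Mcm5.

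Correlation between cells was a second description. Over the 9 libraries the median Pearson r of a gene with the summed UMIs of the other members (log of 1 plus UMIs) was highest for Hells (0.38), Mcm3 (0.37), Uhrf1 (0.36) and Mcm5 (0.32) and lowest for Gins3 (0.06) and Pold3 (0.07). Single pairs were weakly correlated, with a median r of 0.07 to 0.09 per library, as sparse counts allow. Of 7046 genes outside the set, those most like the members' sum were Pclaf (0.47), the thymidine kinase Tk1 (0.44), the topoisomerase Top2a (0.44), Mki67 (0.43), the midzone protein gene Prc1 (0.43), the mitotic survivin gene Birc5 (0.42), Stmn1 (0.41), the condensin gene Smc2 (0.40), Hmgb2 (0.39) and the histone gene Hist1h2ap (0.38). Among the lowest were the ribosomal protein genes Rpl10 (-0.23), Rpl37a (-0.22), Rpl39 (-0.21) and Rpl24 (-0.20). The median over all genes ranked was 0.01. Cells of a library share its depth after thinning, and ribosomal protein genes took a slightly lower share of UMIs in the cells with 8 or more members (28.3% against 29.9% at 30 h with Dox, 25.2% against 30.5% at 17 h in Experiment 1), whose part in these correlations was not tested.

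Gli1 was set beside the replication genes cell by cell. In cells thinned to 10000 UMIs, a Gli1 UMI was present in 10.5% of cells with 8 or more members against 23.1% of the rest at 19 h with Dox, and in 11.6% against 26.5% at 30 h. Without Dox in Experiment 2 it was in 4.66% against 8.36% at 19 h and 5.31% against 17.7% at 30 h. In Experiment 1 it was in 3.45% against 9.48% at 17 h and 2.63% against 4.55% at 30 h. The share was lower in 6 of 6 SAG-treated libraries, with a mean difference of -8.58 percentage points (SD 5.38, n = 6). In Experiment 1 the cells with 8 or more members numbered 58 and 76, with 2 Gli1-positive cells each. At 0 h Gli1 was found in 0% to 0.25% of either kind of cell. Before thinning, when these cells were the deeper ones, the share was also lower in them in 6 of 6, for example 44.2% against 71.1% at 30 h with Dox.

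**Figure D5:**
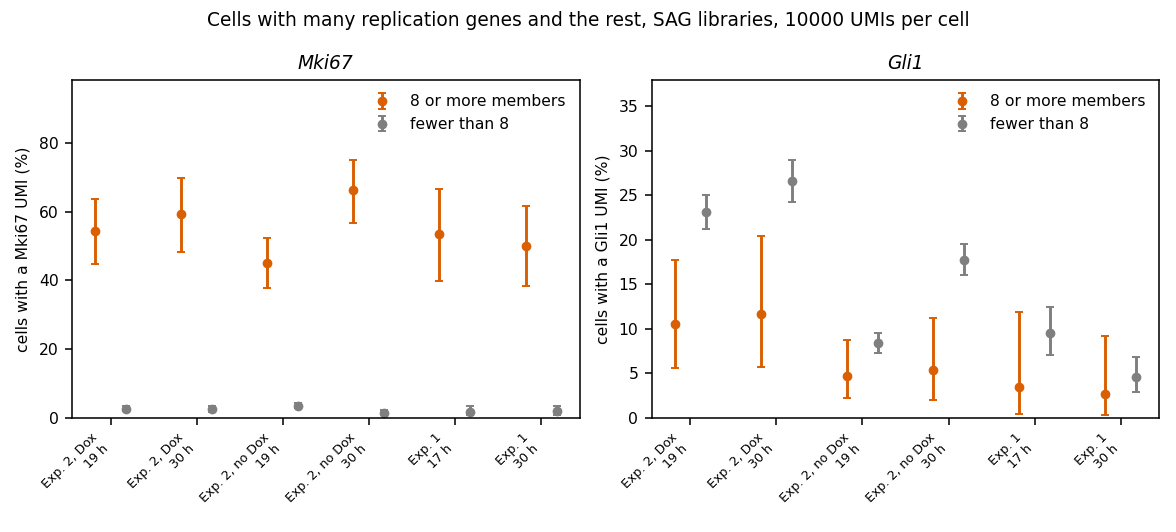
Percent of thinned cells with a UMI of Mki67 (left) or Gli1 (right) in the 6 SAG-treated libraries, for cells with 8 or more of the 43 genes (orange, left of each pair) and the rest (grey, right), with exact binomial 95% intervals. Mki67 is at 45.1% to 66.4% in the orange points and Gli1 is below its grey partner in each library.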

How the data were processed

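The 9 libraries were made with the 3' v3.1 kit of 10x Genomics. Per the submitters' processing notes, Cell Ranger and the build mm10 were used. Per the file headers, version 3.1.0 wrote the Experiment 1 matrices (31054 features) and version 6.0.1 those of Experiment 2 (32286 features). Each deposited value is a raw UMI count of a feature in a barcode, which the authors did not normalize. The deposited barcode and feature lists hold names and other text. How barcodes were chosen is not given in the sources used here.

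Features were joined by gene ID. Kept cells were summed per library and genes tested with edgeR 4.0.16 (filterByExpr, TMM, quasi-likelihood F test, Benjamini-Hochberg over all genes tested, threshold 0.05) in R 4.3.3. SAG time was tested in 9 libraries with the arm as block, the difference of the SAG change with Dox in 9 with condition and experiment as terms, Dox in 6 with SAG time, and experiment in 6 with SAG time. The experiment and Dox in the titles mark the arms, and libraries of 1 arm deviated together from the mean of their time (r of 0.67 to 0.85 over 13837 genes). Within arms, log2 CPM were compared after adding a prior count of 2. DESeq2 1.42.0, other scalings, cell filters and leaving out each library were the alternatives. The scripts were tested on simulated data.

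The 43 members and all lists were chosen with earlier results of these data known. Values in every library are given for members called in any comparison, for the 3 higher and 3 lower members of smallest p over 30 h of SAG and for Dox, and for the 4 highest and 4 lowest by mean CPM (a scale with no length term, since UMIs tag 3' ends). Genes outside the members were named from lists by p, and the 10 highest and 5 lowest by r among genes with at least 0.05 UMIs per thinned cell. A gene that this rule names is not reported here. Marker genes were the cell type check. Exon overlaps were read from GENCODE vM21. Per-cell values used Python 3.11.15, numpy 2.4.6 and scipy 1.17.1.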

Additional observations from a re-analysis of the deposited data

Results flagged for a closer look

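The share of cells with 4 or more members, 30 h minus 0 h, was 19.56 points in Experiment 2 with Dox, 10.19 in Experiment 2 without Dox and -5.986 in Experiment 1, opposite in sign between the experiments. The log2 ratio of the members' summed CPM at 30 h to 0 h was 0.389 with Dox, 0.08349 without Dox in Experiment 2 and -0.04135 in Experiment 1. Ccne2 at 30 h against 0 h was -1.233 with Dox, -2.035 without Dox in Experiment 2 and 0.4608 in Experiment 1 (log2 CPM after scaling). In each case the arms moved to opposite sides, each arm has 1 library per time, and the difference between experiments was not tested.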

How the results depend on the processing

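The count of members called was 2 at 30 h of SAG (5.67%), with the percent of all genes called in brackets here and below. It was 0 (0.0867%) with library size as the only scaling (chosen after seeing the data, as was thinning outside ribosomal genes). It was 5 (10.5%) with no filter on low counts and 0 (0%) with no replicate block. In the libraries without Dox alone, with the replicate block by experiment, it was 1 (0.446%). Leaving out single libraries gave 0 to 15 (0.00743% to 43.3%). At 17 to 19 h the count of 0 (0.0217%) became 1 by DESeq2 (0.795%) and 1 with no filter (0.886%), and 0 to 7 on leaving out libraries (0% to 18%). For 30 h against 17 to 19 h it was 0 in every alternative run (0% to 0.108%). With Dox the count of 15 (38.4%) was 9 with library size alone (54.4%), 9 by DESeq2 (28.5%) and 0 with no replicate block (1.46%). On leaving out libraries it was 5 to 19 (21.0% to 30.6%). The Dox difference of the SAG change gave 0 member calls in every alternative run. Other genes were called with no filter (0.0476%), at 20% mitochondrial UMIs (0.053%) and in some fits that left out a library. Leaving out the libraries at 0 or 30 h with Dox could not be fitted. Between experiments 11 (40.5%) became 17 (43.8%) with library size alone and 5 to 12 (19.1% to 39.8%) on leaving out libraries. The reversals of single genes were Lig1 (0.0982), Rpa3 (0.104) and Slbp (0.12) for Dox with library size alone. The share of cells with 4 or more members, 30 h minus 0 h, was 5.44 points with Dox at 5000 UMIs per cell, 0.866 for 8 or more members, 13.3 with no thinning, 16.0 at 20% mitochondrial UMIs and 8.23 at 5000 UMIs outside ribosomal and mitochondrial genes. Without Dox in Experiment 2 it was -1.4, -1.85, 19.3 and 0.549 under the same settings other than the mitochondrial one, and in Experiment 1 0.837 for 8 or more members. The log2 ratio of the summed level was -0.00967 with Dox, -0.436 without Dox in Experiment 2 and 0.0411 in Experiment 1 after TMM scaling. The cause of these moves was not tested. With 1 library per arm and time, and 10000 UMIs per thinned cell, low members such as Cdc6 and Ccne2 rest on few UMIs.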

Other observations

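The 25 mitosis genes summed to 252, 251 and 265 scaled CPM with Dox, 422, 346 and 318 without Dox in Experiment 2 and 553, 619 and 759 in Experiment 1. Experiment 1 was highest at each time, and in the libraries without Dox all 25 had negative differences of Experiment 2 from Experiment 1, of which 18 were called, beside 19.9% of all genes called lower. With Dox those of smallest p were Ube2c (-1.26), which feeds mitotic cyclins to the proteasome, and Nusap1 (-1.22), a spindle protein gene (adjusted p = 5.64e-12 and 2.89e-10, edgeR).

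Inhibitors of the cyclin-dependent kinases went both ways with Dox. Cdkn1a, which encodes p21, measured 298, 333 and 325 scaled CPM with Dox, 149, 209 and 211 without Dox in Experiment 2 and 129, 135 and 127 in Experiment 1 and rose with Dox by 0.76 (adjusted p = 2.12e-05). Cdkn1c, which encodes p57, rose by 2.29 (adjusted p = 0.00656) on only 5, 10 and 8 UMIs with Dox against 1, 1 and 3 without in Experiment 2, and Cdkn2d fell by 0.41 on the log2 scale. The G1 cyclin gene Ccnd1 rose by 1.08 with Dox (adjusted p = 1.56e-09). At 30 h of SAG Cdkn2c, which encodes an inhibitor of Cdk4 and Cdk6, fell, with a change of -1.201 (SE 0.21, adjusted p = 0.0295). What links these changes to the replication genes was not tested.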
